A study of Mus musculus with 6 samples.

Results

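The 10 genes *Rbm20*, *Rbm24*, *Mbnl1*, *Mbnl2*, *Celf1*, *Celf2*, *Rbfox1*, *Rbfox2*, *Ptbp1* and *Rbpms* encode RNA-binding proteins that control alternative splicing in muscle. They were taken by their symbols from the 21776 genes of the deposited table, whatever their values, and all 10 were found. Heart RNA of 3 *Trdn-as* knockout mice (KO) and 3 wild-type mice (WT) was sequenced as strand-specific total RNA, with 1 library per heart. *Trdn-as* is a non-coding RNA read from the strand opposite to *Trdn*, which encodes triadin of the sarcoplasmic reticulum calcium release complex. In the KO a polyadenylation signal had been inserted with Cas9 into the first exon of *Trdn-as* in mouse embryonic stem cells, and chimeras were crossed to C57BL/6 and their offspring bred to homozygosity. This allele is carried by every cell, whereas the series description speaks of loss in cardiomyocytes. The series title calls the hearts adult. The age in weeks, the sex and the number of stem cell clones behind these hearts are not given in the sources used here. The p-values rest on these 6 hearts only, and those of limma also draw on the spread of other genes of like level.

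An exon of a pre-mRNA can be kept or skipped, and the choice is set largely by proteins that bind short sequences in or near the exon. In muscle these proteins change in amount during development and switch fetal to adult isoforms of sarcomere, ion channel and calcium handling genes. MBNL proteins promote adult splicing patterns in the heart, and CELF proteins often act against them on the same exons. RBM20 acts mainly as a repressor of exons, among them exons of titin, and its loss of function causes dilated cardiomyopathy. The values below are read counts of a whole gene, so they measure the amount of each regulator's RNA and not the splicing of any exon.

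Several of these genes come in pairs of close relatives, and reads were counted only where they mapped to a single place. For 3 such pairs the stretch of coding sequence with the longest identical run is shown, since it shows how far a read can tell the relatives apart. The sequences are from GENCODE M21 transcripts on GRCm38, 75 bases long like the reads, written 5′ to 3′ on the gene's strand, with the identical run in capitals. Each one joins 2 exons.
*Mbnl1*: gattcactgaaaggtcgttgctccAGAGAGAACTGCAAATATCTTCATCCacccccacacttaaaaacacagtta
*Mbnl2*: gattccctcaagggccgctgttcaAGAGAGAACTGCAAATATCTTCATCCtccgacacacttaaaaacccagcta
*Celf1*: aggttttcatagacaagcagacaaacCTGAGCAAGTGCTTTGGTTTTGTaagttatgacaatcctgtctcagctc
*Celf2*: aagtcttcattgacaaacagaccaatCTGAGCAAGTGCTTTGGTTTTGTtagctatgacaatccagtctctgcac
*Rbfox1*: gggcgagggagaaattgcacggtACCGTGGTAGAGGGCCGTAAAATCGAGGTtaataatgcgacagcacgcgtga
*Rbfox2*: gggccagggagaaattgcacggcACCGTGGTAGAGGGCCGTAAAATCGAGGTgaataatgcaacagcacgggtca

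The *Mbnl1* stretch lies between chr3:60529793-60595656 on the plus strand and that of *Mbnl2* between chr14:120325401-120379212 on the plus strand, with an identical run of 26 bases and 12 mismatches over the 75. The *Celf1* stretch lies between chr2:91012801-91013270 (plus) and that of *Celf2* between chr2:6547181-6549873 (minus), with a run of 23 bases and 11 mismatches. The *Rbfox1* stretch lies between chr16:7292228-7294094 (plus) and that of *Rbfox2* between chr15:77102915-77105626 (minus), with a run of 29 bases and 6 mismatches. No stretch of 75 bases was identical between the members of any of these pairs, so an error-free read of full length belongs to 1 of them. In 7 of the 10 genes, 0% of the 75-base windows of the coding transcripts were shared with an annotated transcript of another gene. The share was 0.291% in *Mbnl2*, 1.17% in *Celf2* and 17.4% in *Ptbp1*. In *Ptbp1* 294 and 93 windows were also found in the pseudogenes *Gm17134* and *Gm4900*, from which reads cannot be told apart, so that its values can be too low. The other *Ptbp1* windows, 221 and 76, and those of *Celf2* lie in genes that overlap them on the opposite strand, which strand-aware counting separates.

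The libraries held between 2.59 and 3.62 M counted reads, as estimated from how the rounded values are spaced, and the deposited values summed to between 3.13 and 3.25 M. *Trdn-as*, listed as AC157017.2, had values of 1, 0 and 1 in the KO hearts and 690, 773 and 688 in the WT hearts, which fits the labels. In limma over all 13753 genes with a mean of at least 10, 4 genes, 0.0291%, had an adjusted p under 0.05, and 5.74% had an unadjusted p under 0.05. The cardiomyocyte markers were present at high levels (*Myh6*, an atrial and ventricular myosin heavy chain, 4985 to 6643 per heart), and the skeletal muscle markers that were measured were close to absent (*Myh2* 0 to 3, *Mylpf* 0 to 5, *Tnnt3* 1 to 6). WT replicate 1 was the library with the fewest reads and had the highest summed value of the 6 cardiomyocyte markers, 22840 against 17964 to 20686 in the other 5 libraries.

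The main question was whether the RNA of the splicing regulators differed between KO and WT hearts. All 10 genes passed the filter on low values, and 0 of 10 passed the test, with adjusted p between 0.88 and 1.0 in limma. None had an unadjusted p under 0.05 either, the lowest being 0.099 for *Mbnl2*. The estimate was lower in KO for 7 and higher for 3, with a median log2 change of -0.05, beside a median of 0.0017 and 49.4% lower estimates over all genes tested. The median was -0.03 when libraries were scaled to equal totals and -0.02 with a correction for read density, each with 6 of 10 lower. These genes were measured more precisely than most, with standard errors of 0.052 to 0.097 on the log2 scale against a median of 0.12 over all genes tested. The 95% intervals ran from a KO level of 0.854 times WT (the lower end for *Rbm24*) to 1.204 times WT (the upper end for *Ptbp1*), and for 9 of the 10 genes the interval lay within a 1.2-fold change in either direction. This precision depends on the mean-variance trend of the fit. Without that trend the standard errors ran from 0.0683 for *Celf1* to 0.102 for *Rbfox1*, and the intervals of that fit are not given here.

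**Figure D1:**
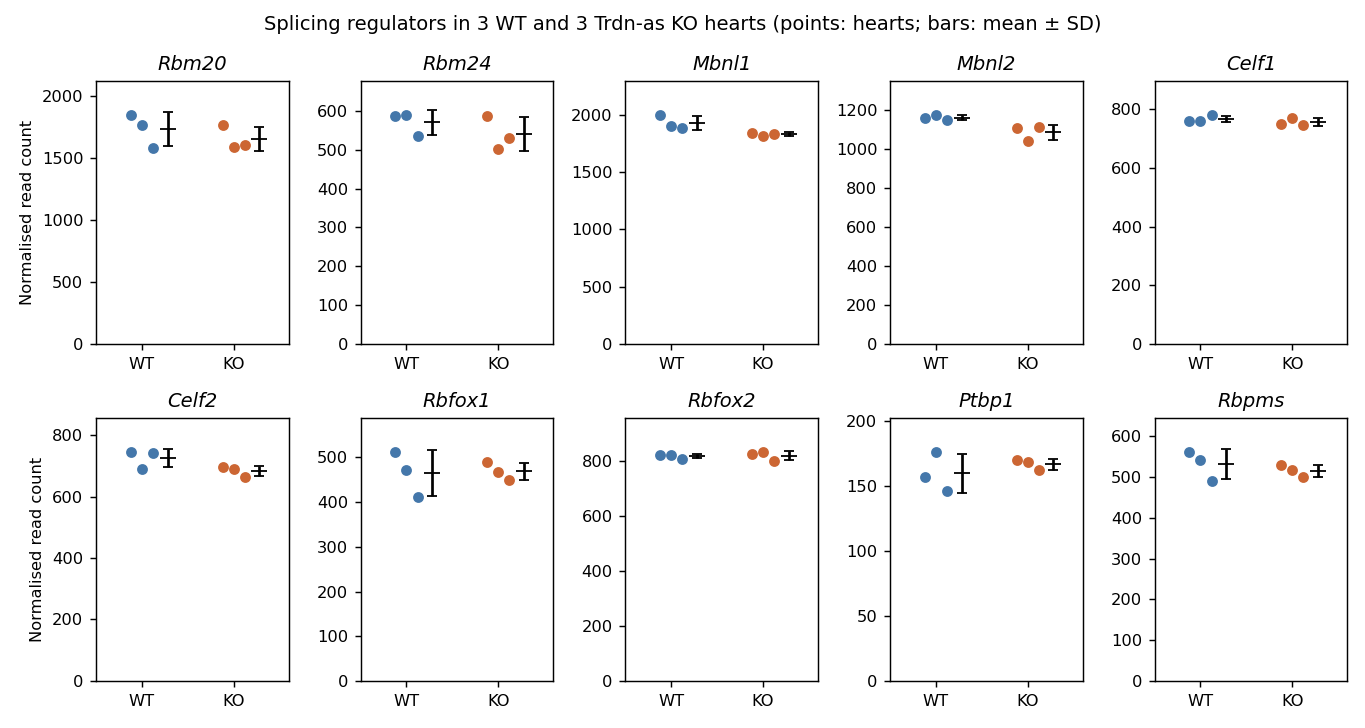
Normalised read count (linear axis from 0) of the 10 splicing regulators in each WT (blue) and KO (orange) heart, with the mean and SD of 3 hearts as black bars. The groups overlap for 8 genes, and for *Mbnl1* and *Mbnl2* all 3 KO hearts lie below all 3 WT hearts.

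*Rbm20* (ENSMUSG00000043639, chr19:53677306-53867080, plus strand), which regulates titin splicing in the heart, had 1760, 1587 and 1604 normalised reads in KO and 1841, 1767 and 1577 in the WT hearts. WT replicate 1 was the highest and WT replicate 3 the lowest of all 6, so the KO values lay inside the WT range. The means were 1650 ± 95.4 in KO and 1728 ± 136 in WT (SD, n = 3 each), a log2 change of -0.07 ± 0.063 (SE) with a 95% interval of -0.20 to 0.07 (limma, adjusted p = 0.93). The estimate was -0.02 without WT replicate 1, -0.13 without WT replicate 3 and 0.01 with the correction for read density.

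*Rbm24* (ENSMUSG00000038132, chr13:46418434-46431095, plus strand), a splicing regulator needed for the assembly of the sarcomere, had 587, 502 and 529 normalised reads in KO and 587, 588 and 534 in WT. KO replicate 1 reached the level of the higher WT hearts, and the other KO hearts lay below all WT hearts. The log2 change was -0.08 ± 0.070 (SE; 95% interval -0.23 to 0.07; limma, adjusted p = 0.92), and it ran from -0.03 without KO replicate 2 to -0.14 without KO replicate 1.

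*Mbnl1* (ENSMUSG00000027763, chr3:60473079-60629750, plus strand), the muscleblind protein that is sequestered by repeat RNA in myotonic dystrophy, had 1844, 1813 and 1835 normalised reads in KO and 1995, 1902 and 1889 in WT. The 3 KO hearts all lay below the 3 WT hearts, with means of 1831 ± 15.9 and 1929 ± 57.8 (SD, n = 3 each). The KO hearts differed from each other by less than read counting alone gives on average, with an SD of 0.871% of the mean against 2.31%. The log2 change was -0.07 ± 0.052 (SE; 95% interval -0.18 to 0.03; limma, adjusted p = 0.90).

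Its relative *Mbnl2* (ENSMUSG00000022139, chr14:120275669-120431697, plus strand) had 1106, 1043 and 1111 normalised reads in KO and 1161, 1173 and 1147 in WT. Here too no KO heart reached the lowest WT heart, and the mean was 1087 ± 37.9 over the KO hearts, or 93.7% of the 1160 ± 13.0 over the WT hearts (SD, n = 3 each). The log2 change was -0.10 ± 0.055 (SE; 95% interval -0.21 to 0.02; limma, adjusted p = 0.88). *Mbnl1* and *Mbnl2* were the 2 of 10 regulators whose groups did not overlap with KO lower, and 0 of 10 had non-overlapping groups with KO higher. Over all genes tested, the groups did not overlap in 4.44% with KO lower and in 4.64% with KO higher.

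The CELF proteins are counterparts of the MBNL proteins that fall in the heart after birth. *Celf1* (ENSMUSG00000005506, chr2:90940397-91019497, plus strand) had 749, 770 and 746 normalised reads in KO and 758, 760 and 778 in WT, with means of 755 and 765. The groups overlapped, and the log2 change was -0.02 ± 0.057 (SE; 95% interval -0.14 to 0.10; limma, adjusted p = 0.98), changing sign to 0.0036 when libraries were scaled to equal totals. *Celf2* (ENSMUSG00000002107, chr2:6539694-7396000, minus strand) had 696, 691 and 663 in KO and 745, 691 and 741 in WT. WT replicate 2 equalled KO replicate 2, and the other WT hearts were above all KO hearts. Its log2 change was -0.09 ± 0.060 (SE; 95% interval -0.21 to 0.04; limma, adjusted p = 0.90).

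The RBFOX proteins bind the motif GCATG next to alternative exons. *Rbfox1* (ENSMUSG00000008658, chr16:6809222-7412479, plus strand) had 489, 467 and 450 normalised reads in KO and 512, 472 and 411 in WT, with means of 469 ± 19.5 and 465 ± 50.9 (SD, n = 3 each). The WT hearts held both the highest and the lowest value, and their SD was 10.9% of the mean, the widest WT spread of the 10 genes, where read counting gives 4.63%. The log2 change was 0.02 ± 0.077 (SE; 95% interval -0.14 to 0.18; limma, adjusted p = 0.99), and it was 0.09 without WT replicate 1 and -0.07 without WT replicate 3. *Rbfox2* (ENSMUSG00000033565, chr15:77078990-77307053, minus strand) had the narrowest range for its level of the 10, with 825, 832 and 801 in KO and 820, 823 and 808 in WT. Its log2 change was 0.0040 ± 0.056 (SE; 95% interval -0.11 to 0.12; limma, adjusted p = 1.0), so that a KO level below 0.924 or above 1.09 times WT lay outside the interval.

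*Ptbp1* (ENSMUSG00000006498, chr10:79854427-79864771, plus strand) encodes the polypyrimidine tract-binding protein, a repressor of muscle and neuronal exons that is low in differentiated muscle. It had the lowest normalised read counts of the 10, with 170, 168 and 162 in KO and 157, 176 and 146 in WT. The WT values lay on either side of all KO values, and the log2 change was 0.07 ± 0.097 (SE; 95% interval -0.14 to 0.27; limma, adjusted p = 0.96), with 0.0035 without WT replicate 3 and 0.14 without WT replicate 2. *Rbpms* (ENSMUSG00000031586, chr8:33782643-33929863, minus strand), a splicing regulator of smooth muscle and cardiomyocytes, had 529, 517 and 499 in KO and 561, 542 and 490 in WT, again with the KO values inside the WT range. Its log2 change was -0.04 ± 0.068 (SE; 95% interval -0.18 to 0.10; limma, adjusted p = 0.97), with -0.0014 without WT replicate 1 and -0.10 without WT replicate 3.

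Smooth muscle cells also express *Rbpms* and *Ptbp1*, and their 6 markers all passed the filter. Their summed value was 1531 to 1659 in KO and 1484 to 1670 in WT, and 0 of 6 passed the test or had an unadjusted p under 0.05 in limma. Their estimates ran from -0.17 for *Tagln* to 0.41 for *Cnn1*, with 4 lower and a median of -0.04, and with 3 lower and a median of -0.0047 without KO replicate 1 and -0.02 without WT replicate 1. *Acta2*, smooth muscle actin, was the 1 of 6 without overlap (4.44% of all genes tested with KO lower), at 247, 247 and 242 in KO and 267, 261 and 279 in WT, and these 3 markers are named after their values were seen.

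**Figure D2:**
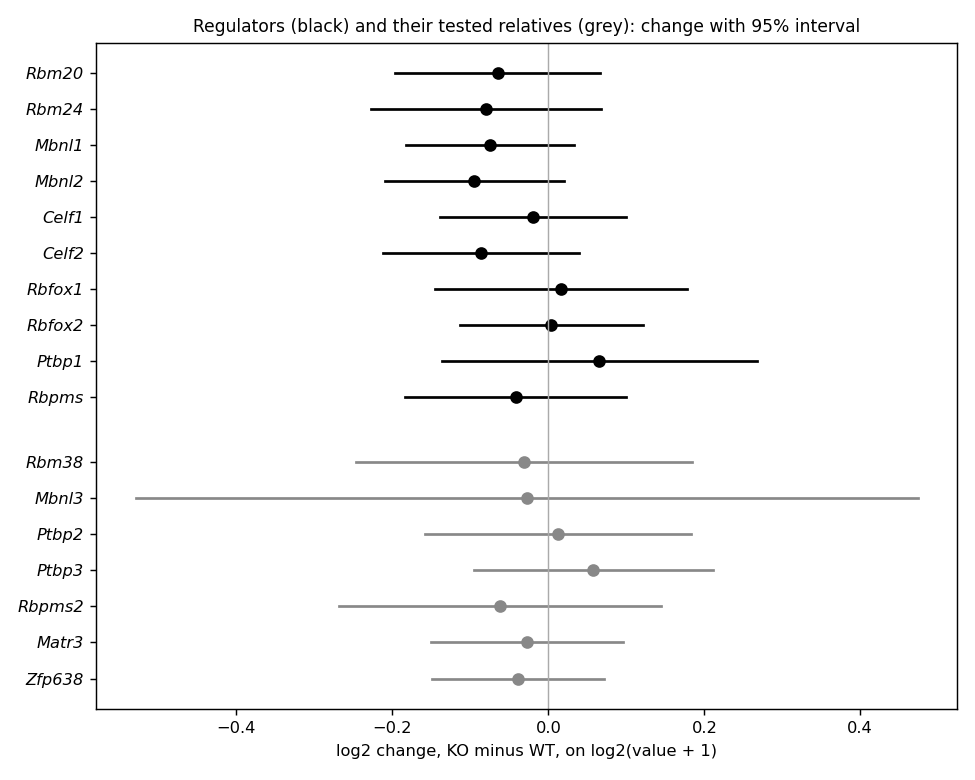
Log2 change, KO minus WT, on the log2(value + 1) scale for the 10 regulators (black) and their 7 tested relatives (grey), with 95% intervals from limma over 3 hearts per group. Every interval includes 0, and that of *Mbnl3*, with values of 18 to 26 per heart, is the widest.

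The library with the highest value was WT replicate 1 for 5 of the 10 regulators (*Rbm20*, *Mbnl1*, *Celf2*, *Rbfox1* and *Rbpms*), and the lowest was WT replicate 3 for 4 (*Rbm20*, *Rbfox1*, *Ptbp1* and *Rbpms*). The median log2 change of the 10 was -0.02 without WT replicate 1 and -0.08 without WT replicate 3. Lower estimates were found for 7 and 9 of the 10 in these fits.

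Levels of different genes were compared per kilobase of annotated exon. The lengths are from GENCODE M21, whose gene coordinates differ from the deposited ones for *Mbnl1*, *Celf1*, *Celf2*, *Rbfox1* and *Rbfox2*. The largest of these differences was in *Rbfox1*, which starts at 5885355 there and at 6809222 in the deposited coordinates. For these genes the exons counted and the length used may not match. *Rbm20* was the highest with 243 ± 14.0 normalised reads per kilobase in KO and 255 ± 20.1 in WT (SD, n = 3 each), at the 98.5th percentile of all genes tested. *Rbm24* followed with 155 ± 12.4 and 163 ± 8.85, at the 95.9th percentile. In every heart *Rbm20* was above *Rbm24* and *Rbm24* above *Rbfox1*, and the ranges over hearts did not touch. *Rbfox1*, *Rbfox2*, *Mbnl1*, *Mbnl2* and *Celf1* formed a narrow group with means over the 6 hearts of 106, 101, 100.4, 93.7 and 90.0. Neighbours in this group overlapped, with *Rbfox1* above *Rbfox2* in 5 of 6 hearts, *Rbfox2* above *Mbnl1* in 3 of 6 and *Mbnl2* above *Celf1* in 5 of 6. *Mbnl1* was above *Mbnl2* in 6 of 6 hearts, although their ranges over hearts overlapped. *Rbpms* came next with 79.8, followed after a gap by *Ptbp1* with 34.4 and *Celf2* with 27.2, at the 60.3rd and 52.0th percentile. From *Celf1* down to *Celf2* each gene was above the next in 6 of 6 hearts, and their ranges did not overlap.

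This order depends on the length used. *Celf2* and *Mbnl1* have many annotated transcripts, with 25.9 and 18.7 kb of exon in all and a longest transcript of 8.86 and 5.66 kb. With the longest transcript as the length, *Mbnl1* stood at 332 per kilobase, second to *Rbm20* at 345, and *Rbpms* and *Mbnl2* followed at 205 and 202. *Celf2* at 79.6 then stood above *Ptbp1* at 51.5, which was the lowest. The mean of *Rbm20* was first by either length, but with the longest transcript it was above *Mbnl1* in 5 of 6 hearts, and in WT replicate 3 *Mbnl1* stood at 334 and *Rbm20* at 322.

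**Figure D3:**
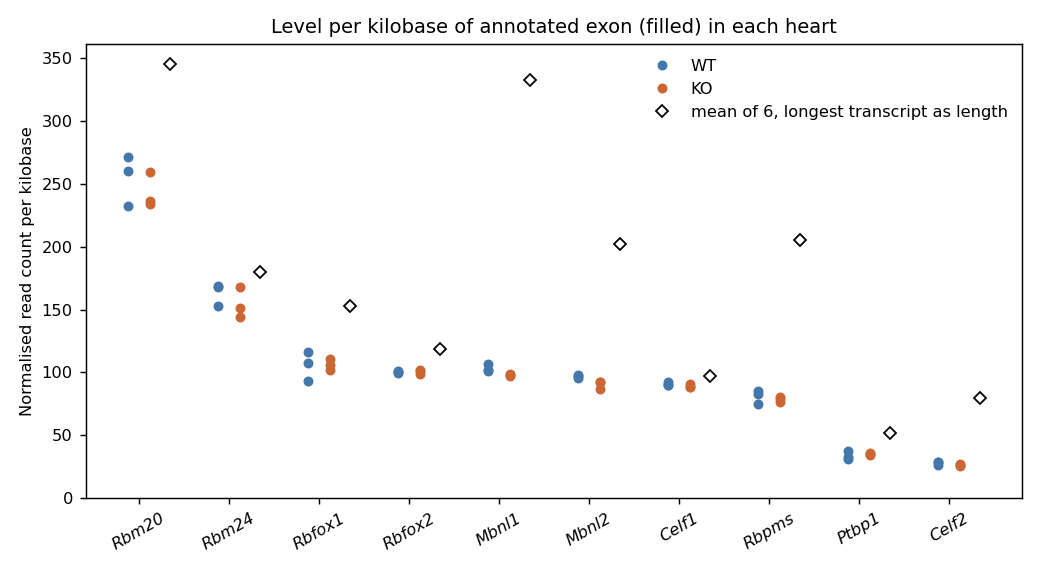
Normalised read count per kilobase (linear axis from 0) of each regulator in WT (blue) and KO (orange) hearts, by the total length of annotated exons, with open diamonds for the mean of the 6 hearts by the longest transcript. The 6-heart mean of *Rbm20* is the highest by either length, and that of *Mbnl1* moves from 100.4 to 332.

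Ratios between relatives do not depend on the scaling of a library and were compared with an exact permutation test, two-sided, in which 3 against 3 hearts cannot give a p below 0.1. *Mbnl1* over *Mbnl2* was 1.67, 1.74 and 1.65 in KO and 1.72, 1.62 and 1.65 in WT. The groups overlapped, with a log2 difference of 0.02 (exact permutation p = 0.50, adjusted over the 5 ratios 0.63). *Celf1* over *Celf2* was 1.08, 1.114 and 1.125 in KO and 1.02, 1.10 and 1.05 in WT, with a log2 difference of 0.07 (exact permutation p = 0.20, adjusted 0.63) that was 0.04 without WT replicate 1. KO replicates 2 and 3 were above all WT hearts, and KO replicate 1 was between them.

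*Rbfox1* over *Rbfox2* was 0.573 ± 0.018 over the KO and 0.569 ± 0.058 over the WT hearts (SD, n = 3 each; exact permutation p = 1.0, adjusted 1.0), and the WT hearts spread over 0.509 to 0.625. *Ptbp1* over its relative *Ptbp2*, which had 250 to 292 per heart, was 0.612 ± 0.060 over the KO and 0.590 ± 0.059 over the WT hearts (SD, n = 3 each; exact permutation p = 0.50, adjusted 0.63). As the values of *Ptbp1* can be too low, so can this ratio. The sum of *Celf1* and *Celf2* over that of *Mbnl1* and *Mbnl2*, families with opposite effects on many exons, was 0.490, 0.512 and 0.479 in KO and 0.476, 0.472 and 0.501 in WT (log2 difference 0.03, exact permutation p = 0.50, adjusted 0.63). Although *Mbnl1* and *Mbnl2* were each lower in every KO heart than in every WT heart, their ratio and the ratio of the CELF to the MBNL pair overlapped between the groups.

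**Figure D4:**
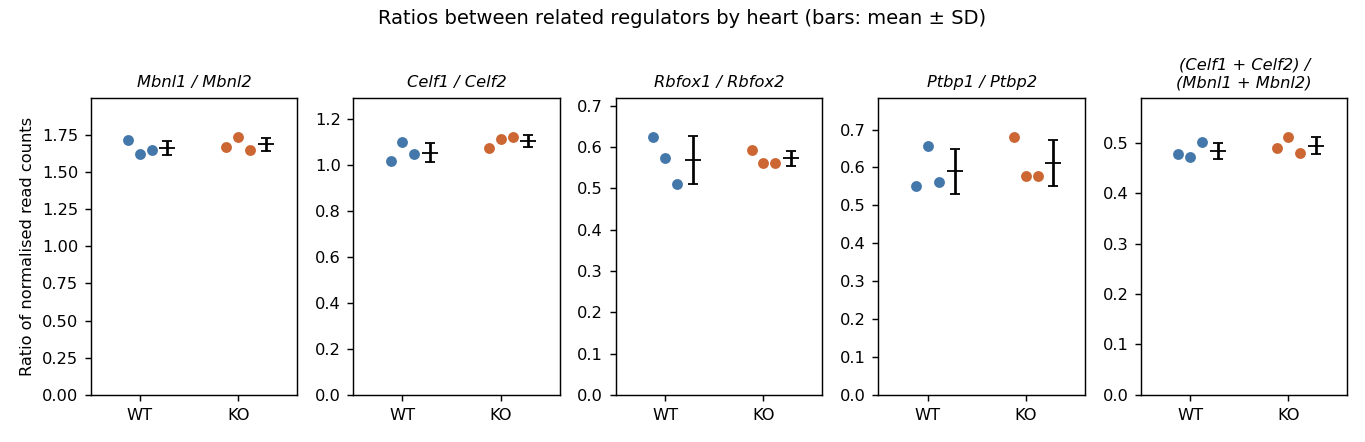
Ratios of normalised read counts (linear axes from 0) between related regulators in each WT (blue) and KO (orange) heart, with the mean and SD of 3 hearts as black bars. The groups overlap in all 5 ratios, and *Celf1* over *Celf2* is 1.11 ± 0.026 in KO and 1.06 ± 0.041 in WT.

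Of 12 further relatives of the regulators, 7 were tested, and 0 of 7 passed the test or had an unadjusted p under 0.05 in limma. *Zfp638*, a relative of *Matr3* that is also found with splicing factors, had 1327, 1277 and 1318 in KO and 1357, 1332 and 1340 in WT (log2 change -0.04 ± 0.053 (SE)). It was the 1 of 7 without overlap, beside 4.44% of all genes tested with KO lower. *Matr3*, matrin 3, had 727 to 784 in KO and 751 to 767 in WT. *Ptbp3* had 482 to 583 in KO and 511 to 538 in WT, and *Ptbp2* had 250 to 292 and 261 to 286. *Rbm38*, the relative of *Rbm24*, had 140 to 175 in KO and 148 to 166 in WT. *Rbpms2*, the relative of *Rbpms*, had 141 to 147 and 143 to 164. *Mbnl3* stood at 20 to 24 in KO and 18 to 26 in WT, so that *Mbnl1* and *Mbnl2* held nearly all MBNL reads. The mainly neuronal *Celf3*, *Celf4* and *Celf5* reached at most 2, 8 and 3 in any heart and were not tested, and *Celf6* and *Rbfox3* were not analysed here.

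A list of 12 other splicing regulators and kinases of splicing factors was read beside them, and 0 of 12 passed the test or had an unadjusted p under 0.05 in limma. The estimates ran from -0.19 to 0.08, with 10 lower and a median of -0.08. *Rbm10* was the 1 gene lower without overlap (131, 119 and 115 in KO and 142, 133 and 141 in WT) and the kinase *Clk4* the 1 gene higher without overlap (307, 309 and 306 in KO and 297, 282 and 292 in WT); both are named here after their values were seen, and over all genes tested the shares were 4.44% and 4.64%. Of 8 splicing regulators of neurons and epithelia 3 were tested, and none of them passed the test or had an unadjusted p under 0.05. These 3 were *Srrm4*, *Nova2* and *Nova1*, with 144 to 198, 115 to 164 and 34 to 49 per heart. The neuronal *Elavl2*, *Elavl3* and *Elavl4* and the epithelial *Esrp2* were at 0 to 11 in every heart.

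The amounts of RNA of genes whose exons these proteins regulate were also compared, without any measure of which exons were used. Of 12 RBM20 targets, all were tested and 1 passed, *Trdn* itself, the gene opposite to *Trdn-as*. The KO hearts had 2489, 2381 and 2551 and the WT hearts 1541, 1541 and 1516, a log2 change of 0.69 ± 0.052 (SE; limma, adjusted p = 2.3e-07). In *Trdn-as* knockout hearts the authors reported that the cardiac *Trdn* isoform was lost and the skeletal muscle isoform gained. A longer transcript gives more reads, so this whole-gene value does not give the number of *Trdn* molecules. The other 11 targets all had lower estimates, from -0.17 to -0.01 with a median of -0.07, and 0 of 11 passed. The groups did not overlap in 3 of them, *Ryr2*, *Camk2d* (1080 ± 11.5 in KO and 1147 ± 52.0 in WT) and *Cacna1c* (2274 ± 53.5 in KO and 2384 ± 41.5 in WT; SD, n = 3 each), the last 2 named after their values were seen, beside 4.44% of all genes tested with KO lower. Among them *Ryr2*, the calcium release channel that triadin binds, had 9276, 9785 and 9861 in KO and 11387, 10676 and 9991 in WT (log2 change -0.15 ± 0.058 (SE), limma, unadjusted p = 0.020). *Ttn*, titin, had 73738, 75179 and 76849 in KO and 94044, 84042 and 76522 in WT (log2 change -0.17 ± 0.075 (SE), limma, unadjusted p = 0.036), and WT replicate 3 lay among the KO hearts. Without WT replicate 1, 10 of these 11 targets had lower estimates, with a median of -0.05.

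Of 10 targets of MBNL and CELF proteins 8 were tested and 0 passed, with 7 lower estimates and a median of -0.10. *Tnnt2*, cardiac troponin T, whose fetal exon is regulated by these proteins, had 1187, 1196 and 1264 in KO and 1552, 1357 and 1182 in WT (log2 change -0.16 ± 0.074 (SE), limma, unadjusted p = 0.048). The median was -0.06 without WT replicate 1. Of 8 targets of PTBP1, RBPMS or RBFOX proteins, 0 of 8 passed or had an unadjusted p under 0.05, with 3 lower estimates and a median of 0.02, which was 0.04 without KO replicate 1 and 0.03 without WT replicate 1. *Actn1*, non-muscle alpha-actinin, was the 1 of 8 without overlap, higher in KO (269 ± 8.33 against 254 ± 6.08, SD, n = 3 each), beside 4.64% of all genes tested, and is named after its values were seen. *Tpm1* is in this list and the RBM20 list, *Ldb3* in the RBM20 and MBNL lists.

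Several of these targets are abundant transcripts of cardiomyocytes, whose markers also had lower estimates in KO. The estimates of the 6 markers ran from -0.16 to -0.15 with a median of -0.15, and 0 of 6 passed the test. *Myh6* had 4985, 5243 and 5390 in KO and 6643, 5806 and 5103 in WT (log2 change -0.16 ± 0.072 (SE), limma, unadjusted p = 0.036), and *Ryr2* and *Tnnt2* are also in this list. The markers summed to 17964 to 19144 in KO and 18740 to 22840 in WT, and without WT replicate 1 their median was -0.06. The sums were higher in the libraries with fewer counted reads. WT replicates 1 and 2, with 2.59 and 3.04 M reads, had sums of 22840 and 20686. KO replicates 3, 2 and 1, with 3.155, 3.31 and 3.62 M, had 19144, 18739 and 17964. WT replicate 3, with 3.46 M, had 18740. Duplicates had been removed, and the part of read number in this difference was not tested. The part of this difference in the values of the regulators and their targets was not tested either. In whole hearts fewer cells of a type and less RNA per cell cannot be told apart. The markers of other cells gave 0 genes past the test or with an unadjusted p under 0.05. The median was 0.03 for the 6 endothelial markers, -0.02 for the 6 of fibroblasts, 0.06 for the 4 tested of leukocytes, 0.17 for the 4 of atrial muscle, -0.22 for the 5 of blood and -0.39 for the 2 tested of neurons and glia. Some of these medians rested on 1 library. Without WT replicate 1 the blood median was 0.05, the atrial -0.0016, the endothelial 0.06 and the fibroblast -0.0025. Without KO replicate 1 the blood median was -0.50, the endothelial 0.12, the leukocyte 0.25 and the fibroblast 0.06. The 5 blood markers summed to 164 to 304 in KO and 151 to 423 in WT.

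**Figure D5:**
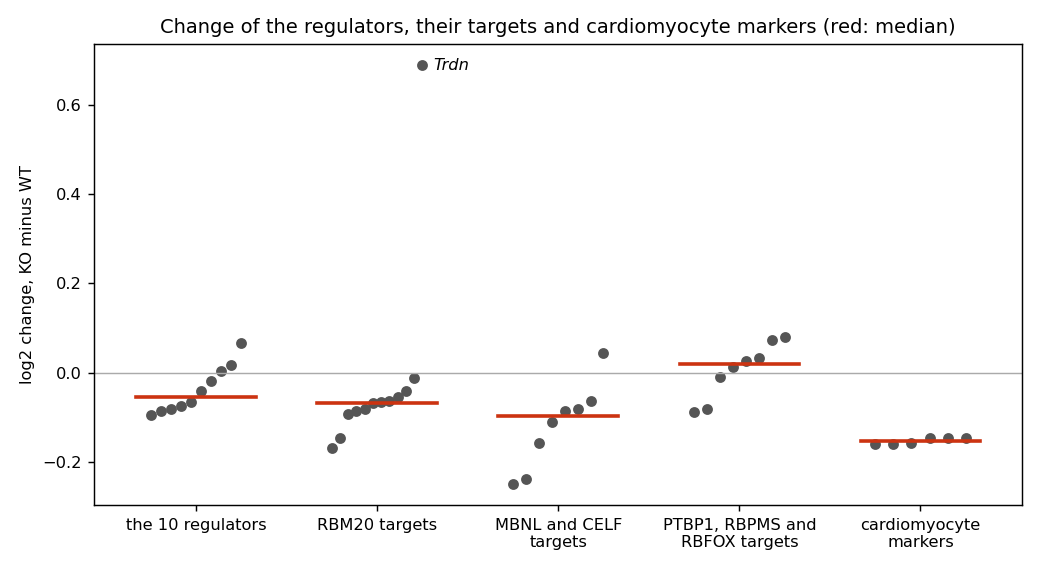
Log2 change, KO minus WT, of each tested gene among the 10 regulators, the targets of RBM20, of MBNL and CELF, and of PTBP1, RBPMS and RBFOX proteins, and the 6 cardiomyocyte markers, with the median of each list as a red line. *Trdn*, at 0.69, stands apart from the other 11 RBM20 targets, which lie between -0.17 and -0.01.

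Total RNA libraries also hold unspliced RNA, and other annotated features lay within the regulators. Those on the same strand shared 0 exon bases with the regulator, so no read within the exons of either was lost to the other. Within introns of *Mbnl1* and on its strand lay *Gm37589* (chr3:60535751-60539744), with 351, 317 and 374 in KO and 341, 355 and 383 in WT, or 19.0 ± 1.45 and 18.7 ± 1.59 per 100 reads of *Mbnl1* (SD, n = 3 each). *Gm37488*, also in *Mbnl1*, had 58 to 93 in KO and 66 to 88 in WT. The groups overlapped for both. Their log2 changes were -0.05 ± 0.078 (SE) for *Gm37589* and -0.07 ± 0.165 for *Gm37488*, close to -0.07 ± 0.052 for *Mbnl1*.

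Within introns of *Celf2*, *Gm10855* (chr2:6932541-6935081) had 171, 178 and 148 in KO and 218, 171 and 193 in WT, a log2 change of -0.22 ± 0.104 (SE; limma, unadjusted p = 0.044, adjusted p = 0.85). *Gm10115* (chr2:6950453-6951680), in the same gene, had 79, 76 and 71 in KO and 92, 72 and 107 in WT, a log2 change of -0.24 ± 0.145 (SE; limma, adjusted p = 0.88). Per 100 reads of *Celf2*, *Gm10855* made 24.2 ± 1.74 in KO and 26.7 ± 2.32 in WT (SD, n = 3 each), which overlapped. *Gm26978*, in an intron of *Rbpms*, had 18, 16 and 21 in KO and 23, 25 and 29 in WT, with a log2 change of -0.47 ± 0.239 (SE; limma, unadjusted p = 0.066, adjusted p = 0.85). It was the 1 of 6 tested features without overlap, beside 4.44% of all genes tested with KO lower, at values where a few reads change the order.

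On the opposite strand, *E130317F20Rik* shared 295 bases of exon with *Ptbp1* and had 9 to 18 in any heart, and *Plppr3* shared 251 bases and had 1 to 5. *Gm26565* shared 1961 bases of exon with *Celf2* and was at 0 to 2. *Gm16299* in *Rbm20* and *1700109K24Rik* in *Rbfox2*, also on the opposite strand, had no exon bases in common with the regulator, and nor had *Gm24056* in *Rbfox2* and *Gm26315* in *Celf2*, which lie on the same strand. These 4 were at 0 to 10 in every heart.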

How the data were processed

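RNA of 3 KO and 3 WT mouse hearts was sequenced by the authors from strand-specific total RNA libraries with 75-base single-end reads. Per the methods and processing notes, the authors trimmed the reads (Trimmomatic 0.39), aligned them to GRCm38 (STAR 2.6.1d), removed duplicates (Picard 2.21.1) and multi-mapping, ribosomal and mitochondrial reads, and counted over exons on the strand of the gene (featureCounts 1.6.5). The authors divided each count by a DESeq2 1.18.1 size factor. The deposited values are such a score, the read count divided by a size factor and rounded, so they are not raw counts and not per length. 0 columns of other samples were present.

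Values were compared as log2(value + 1) for genes with a mean of at least 10 (13753 genes; 8023 untested) with limma 3.58.1 in R 4.3.3, two-sided, with eBayes trended on the mean; p-values were adjusted over all genes tested after Benjamini and Hochberg, with a threshold of 0.05. Fold changes are on that scale. A count model was not used because the values are normalised. Ratios of relatives were compared with an exact permutation test. Exon lengths and sequences came from GENCODE M21, which holds exons for 99.8% of the genes and the same coordinates for 75.2%. Coordinates of whole genes are those of the table. The scripts were tested on simulated data, and figures were drawn with matplotlib 3.10.9.

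Named were the 10 regulators, *Trdn-as* and *Trdn*, all listed relatives, genes of the other lists and of the cell type markers with an unadjusted p under 0.05, and features overlapping a regulator; genes given for tissue identity or lack of overlap were named after their values were seen. The regulators and lists were chosen with earlier results of these data known. Alternatives were other scalings, filters, pseudocount, limma-voom, no trend, a replicate block, a correction for read density (a loess fit, per library, of the deviation from the gene mean against the level per exonic kilobase), a stricter threshold of 0.01 and each library left out.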

Additional observations from a re-analysis of the deposited data

How the results depend on the processing

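Under all 15 other fits and at a threshold of 0.01, 0 of the 10 regulators passed the test. Of 150 refitted changes, 143 kept their direction and 7 reversed, in 4 genes: *Rbm20* to 0.0081 with the correction for read density, *Celf1* to 0.0036 with scaling to equal totals (which moved the median of all genes by 0.023), *Rbfox1* between -0.0696 and 0.0886 and *Rbfox2* between -0.0072 and 0.020 when 1 library was left out. *Rbm20* had the 1 unadjusted p under 0.05, without WT replicate 3. Hearts of the same replicate number did not deviate together (correlations 0.048, -0.068 and -0.028), and the replicate block left 7 of 10 estimates lower, the median at -0.0536 and the 4 calls over all genes at 4. These 4 calls became 2 with at least 10 in every sample, 1 without the mean-variance trend, 2 at the threshold of 0.01, and 2 to 32 with 1 library left out, 32 being the count without KO replicate 1, 7 that without WT replicate 3, and 2 that without either KO replicate 2 or WT replicate 1.

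Leaving out 1 library gave log2 differences of -0.002 to 0.0444 for *Mbnl1* over *Mbnl2*, negative only without KO replicate 2. The range was -0.0656 to 0.0819 for *Rbfox1* over *Rbfox2*, negative without KO replicate 1 or WT replicate 3, and -0.0261 to 0.1346 for *Ptbp1* over *Ptbp2*, negative without KO replicate 1. The other 2 ratios stayed positive, with 0.0402 to 0.0963 for *Celf1* over *Celf2* and 0.0041 (without KO replicate 2) to 0.0566 (without WT replicate 3) for the CELF over the MBNL pair. With the longest transcript as the length, levels per kilobase were 345 for *Rbm20*, 180 for *Rbm24*, 332 for *Mbnl1*, 202 for *Mbnl2*, 96.8 for *Celf1*, 79.6 for *Celf2*, 153 for *Rbfox1*, 118 for *Rbfox2*, 51.5 for *Ptbp1* and 205 for *Rbpms*. With 3 hearts per group and 2.59 to 3.62 M reads per library, a p above the threshold does not show that a regulator was equal in KO and WT, and the stated intervals give the sizes left by these data.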
